A study of Linum usitatissimum with 8 samples.

Results

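Of 38304 annotated gene IDs of flax (Linum usitatissimum) that could be taken, 8 were high in developing seed at both DAP10 and DAP20. All 8 were at least 4-fold lower in every DAP5 and DAP30 library, which need not mean a low level. RNA was sequenced from seeds of the cultivar Heiya No.14 at 4 stages, labelled DAP5, DAP10, DAP20 and DAP30 by the submitters, with 2 libraries per stage and no treatment or genetic change named. The labels do not say whether the libraries of a stage came from separate plants or how many seeds were pooled, so a p-value here speaks only of the spread among these libraries, and that spread may be technical. Levels are given in CPM, the count of a gene divided by the total of its library and multiplied by 1000000. The 8 genes were chosen by their CPM in all 8 libraries: each of the 4 libraries of DAP10 and DAP20 had to reach 20 CPM, and the lowest of these had to be at least 4 times the highest library of DAP5 or DAP30. The rise into DAP10 and the fall after DAP20 are therefore a description of how the genes were chosen and were not tested. The rule does not compare DAP10 with DAP20, or DAP5 with DAP30, and these differences were tested. The tests still reuse the values that chose the genes. A gene much lower at DAP20 than at DAP10, or the reverse, can fail the rule, and a gene too high at DAP5 or DAP30 fails it. The calls are therefore not independent of the choice.

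A seed passes from cell division and patterning of the young embryo, through a filling phase in which storage oil, storage protein and, in the flax seed coat, mucilage are laid down, to maturation and drying. Genes with a passing peak in the middle of this course are off in the young seed and off again, or much reduced, in the maturing one. The deposited table does not pair IDs with gene names, so no function can be given for any of the 8, and the labelled tissue could not be checked against marker genes. IDs are printed without the suffix that names the annotation version. Reads shared between near-identical copies of a gene could not be recognised, and in whole seeds more cells of a type and more RNA per cell cannot be told apart.

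Library totals ran from 12951493 to 27691831 counts. The counts of the libraries of a stage differed beyond sampling noise, with a chi-square per degree of freedom from 19.5 at DAP10 to 79.0 at DAP20, and no library was taken as a copy of another. Floors given below cover counting error only, whereas the SDs and SEs reflect the spread among libraries.

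Together the 8 genes held at most 3.90% of the counts of a library. At DAP5 they took 0.00370% and 0.0118% of the counts of replicates 1 and 2. This became 3.90% and 2.86% at DAP10, then 3.02% and 1.19% at DAP20, and finally 0.161% and 0.255% at DAP30. The stage means were 0.00774% ± 0.00572, 3.38% ± 0.741, 2.11% ± 1.30 and 0.208% ± 0.0667 (SD, n = 2). The DAP10 and DAP20 libraries did not overlap with those of the outer stages, as the choice of genes requires. DAP20 replicate 2 stood well below replicate 1. Most of this share came from Lus10033893 and Lus10022927, which held 71.3% to 76.9% of the 8 genes' counts in the DAP10 and DAP20 libraries.

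**Figure D1:**
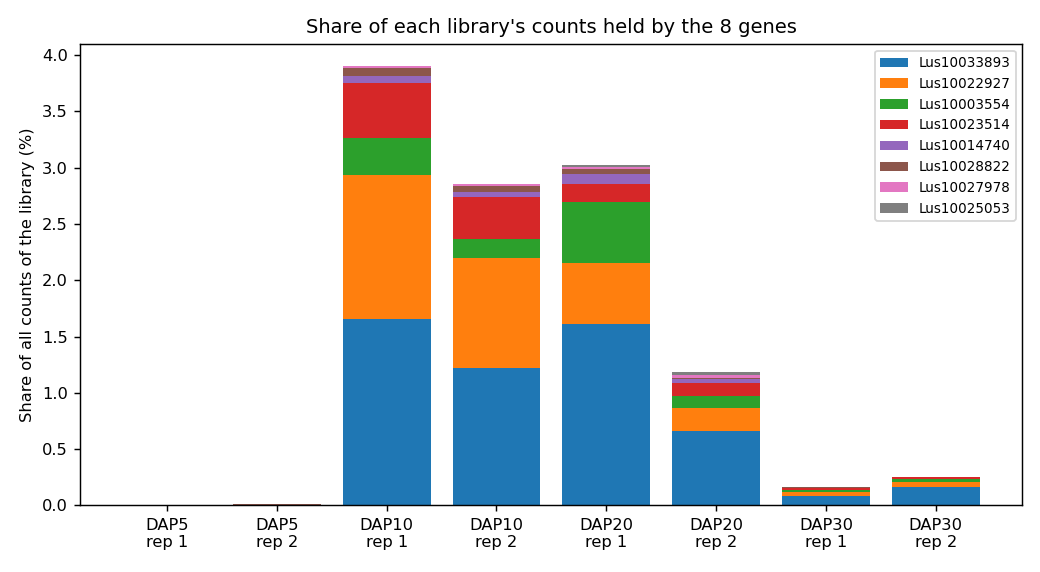
Share of all counts of each library held by the 8 genes, in percent, stacked by gene, with 1 bar per library. The bars reach 3.90% and 2.86% at DAP10 and 3.02% and 1.19% at DAP20, against 0.255% or less in every DAP5 and DAP30 library.

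The first 4 genes were among the most abundant transcripts of the seed at DAP10. Lus10033893 stood at 1.06 and 15.9 CPM in the DAP5 libraries, 16546 and 12236 in those of DAP10, 16069 and 6635 in those of DAP20, and 834 and 1642 in those of DAP30. It ranked 2 among all annotated IDs in both DAP10 libraries, 4 and 7 in those of DAP20, and still 102 and 46 in those of DAP30. Lus10022927 stood at 1.40 and 39.0 CPM at DAP5, at 12821 and 9710 by DAP10, at 5488 and 2006 by DAP20 and at 400 and 459 by DAP30. It ranked 3 in both DAP10 libraries and 280 and 234 in those of DAP30, and its DAP20 libraries were both below its DAP10 libraries.

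Lus10003554 stood at 0.528 and 1.55 CPM at DAP5, at 3263 and 1716 by DAP10, at 5425 and 1114 by DAP20 and at 170 and 202 by DAP30. Its DAP20 libraries lay on either side of its DAP10 libraries, so those stages overlapped. Lus10023514 stood at 0.491 and 7.29 CPM at DAP5, at 4880 and 3686 by DAP10, at 1550 and 1131 by DAP20 and at 163 and 203 by DAP30. Both of its DAP20 libraries were below both of its DAP10 libraries.

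Lus10014740 and Lus10028822 were less abundant in the mid libraries than the first 4 genes. Lus10014740 stood at 6.0 and 0.506 CPM at DAP5, at 640 and 460 by DAP10, at 880 and 311 by DAP20 and at 15.2 and 15.6 by DAP30. It cleared the limit by the widest margin, with its lowest mid library 20 times its highest outer library. Lus10028822 stood at 3.55 and 25.3 CPM at DAP5, at 735 and 578 by DAP10, at 437 and 149 by DAP20 and at 25.6 and 28.7 by DAP30. Its DAP20 libraries were both below its DAP10 libraries, and its higher DAP5 library was close to its DAP30 libraries.

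The remaining pair of genes was less abundant still and had its highest level at DAP20. Lus10027978 stood at 18.2 and 23.0 CPM at DAP5, at 116 and 131 by DAP10 and at 183 and 234 by DAP20, and had no count in either DAP30 library, which allows up to 0.0794 CPM by the floor of 3 counts over both. Lus10025053 stood at 5.81 and 5.34 CPM at DAP5, at 26.5 and 33.4 by DAP10, at 214 and 284 by DAP20 and at 0.707 and 1.87 by DAP30, where it rested on 15 and 31 counts. In both genes the DAP20 libraries were above the DAP10 libraries, and the DAP30 libraries were below those of DAP5. The label of a gene high at DAP10 fits Lus10025053 loosely, since its DAP20 mean was 8.32 times its DAP10 mean.

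**Figure D2:**
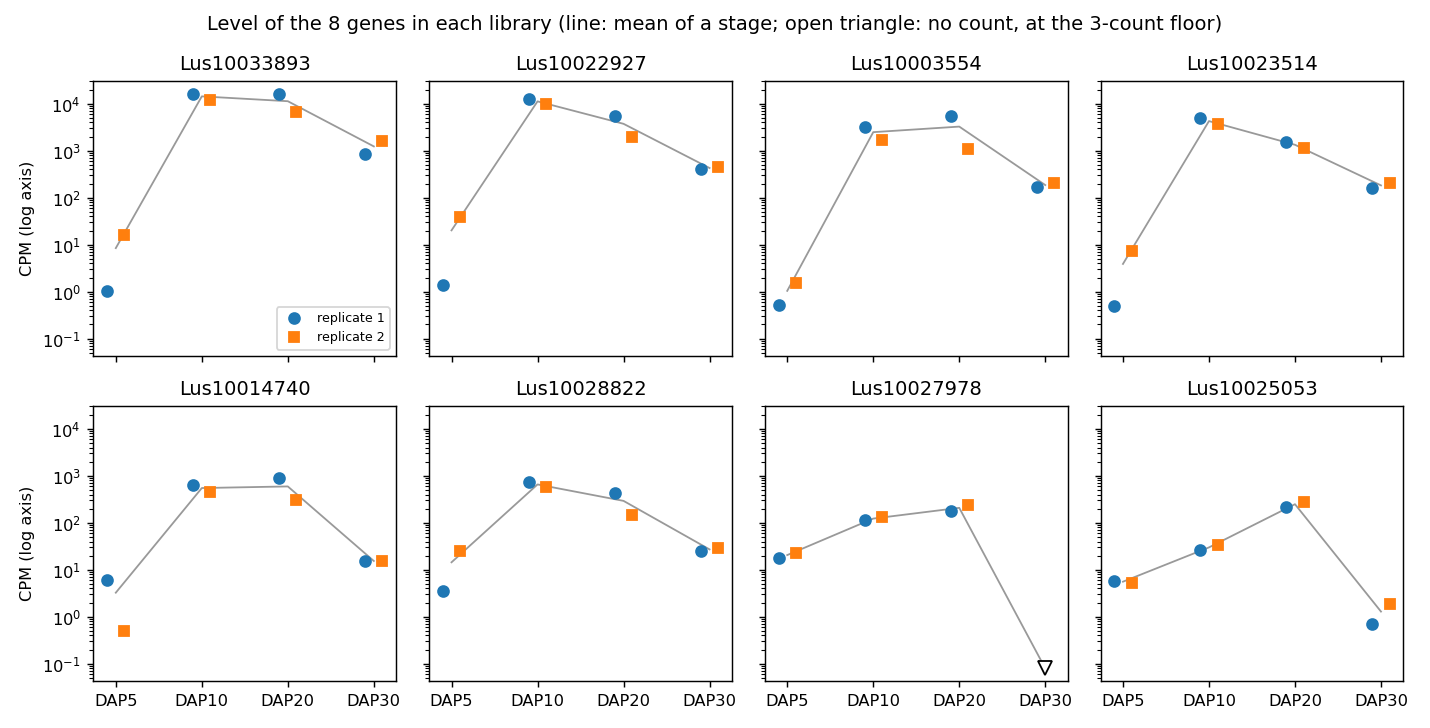
Level of each of the 8 genes in CPM on a log axis, by stage, with replicate 1 as circles, replicate 2 as squares and a line through the stage means. By stage means the first 6 genes end higher at DAP30 than at DAP5, whereas Lus10027978 (no count at DAP30, open triangle at the floor of 0.0794 CPM) and Lus10025053 end lower. For Lus10028822 the closest libraries stood at 25.6 CPM at DAP30 and 25.3 at DAP5, and no difference was called.

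Per length the order of the genes was much the same. The mean over the mid libraries, in CPM per kilobase, was 6631 for Lus10033893, 5106 for Lus10022927, 2893 for Lus10023514, 1527 for Lus10003554, 1003 for Lus10014740, 756 for Lus10028822, 154 for Lus10027978 and 66.5 for Lus10025053. Lus10023514 thus moved ahead of Lus10003554, whose CPM was slightly higher. At DAP10 alone Lus10022927 was ahead of Lus10033893, at 7664 and 7414 on this scale. The 8 genes had a median length of 1274.5 bases, with a range from 571 to 2097. For comparison, the median was 2029.5 bases over the 27454 annotated IDs that passed the expression filter and 2545.5 bases over the 5576 annotated IDs with 20 CPM or more in all mid libraries. All 8 genes were shorter than the latter median. The sources used here do not say how that length was measured, and these are descriptions of 8 genes, not a test.

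Between DAP10 and DAP20 the less abundant Lus10025053 and Lus10027978 rose further, while no difference was called for the 6 more abundant genes. Of the 8 genes, 2 were thus higher at DAP20 and 0 were lower. Both counts are shaped by the choice of genes, since the rule can drop a gene that falls or rises steeply between these stages. The test was edgeR's quasi-likelihood test over 28749 genes, with libraries scaled by TMM, a scaling that assumes most genes do not change, and a false discovery rate (FDR) below 0.05 counted as a call. Among all genes tested, 25.5% were called higher and 27.8% lower, 53.3% in either direction, so 2 of 8 was near the share called higher over all genes under TMM. With library totals in place of TMM the same counts, 2 higher and 0 lower, stood against 15.9% called higher, 37% lower and 52.9% in either direction. None of the genes that were not called had an unadjusted p below 0.05, which leaves the count of lower genes at 0 there too. DESeq2 also called 0 lower, and limma-voom called 1. The median log2 fold change was 0.27 over the 8 genes and -0.03 over all genes tested. The sign of the former rested on the scaling and on single libraries, since it was -0.11 with library totals, -0.74 without DAP20 replicate 1 and 0.73 without DAP20 replicate 2.

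Lus10025053 rose from 29.9 ± 4.82 CPM at DAP10 to 249 ± 49.5 at DAP20 (SD, n = 2), by 3.45 ± 0.37 in log2 (SE; edgeR FDR = 0.000272). Lus10027978 rose from 123 ± 10.5 to 208 ± 36.0 CPM (SD, n = 2), by 1.15 ± 0.20 in log2 (SE; edgeR FDR = 0.00347). Both genes had their DAP20 libraries above their DAP10 libraries. Unless said otherwise, fitted log2 changes rest on TMM scaling, whereas CPM rests on library totals. A fitted change is therefore not the log2 ratio of the CPM means. With library totals in the fit, the rises were 3.06 for Lus10025053 and 0.76 for Lus10027978. The rise of Lus10027978 was not called in a test against a 2-fold change (FDR = 0.232), and over all alternatives its FDR ran from 1.19e-05 to that value.

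For the other 6 genes no difference between DAP10 and DAP20 was called, which does not show that the stages were alike. Lus10023514 went from 4283 ± 845 to 1340 ± 296 CPM (SD, n = 2), a log2 change of -1.29 ± 0.84 (SE; edgeR FDR = 0.229). This was called lower by limma-voom (FDR = 0.0341), with only DAP10 and DAP20 in the fit (0.0307), and without DAP5 replicate 1 (0.00866) or replicate 2 (0.00859). Lus10022927 had a log2 fold change of -1.20 ± 1.12 (SE, FDR = 0.393) and Lus10028822 one of -0.78 ± 0.78 (SE, FDR = 0.428), although both DAP20 libraries of each were below both DAP10 libraries. Neither was called under any alternative. Without DAP20 replicate 1 these values became -2.09 and -1.74, and without DAP20 replicate 2 they became -0.67 and -0.22.

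Lus10033893 had a log2 change of 0.05 ± 0.98 (SE; edgeR FDR = 0.975), and the sign depended on the scaling, since its mean CPM was 14391 ± 3048 at DAP10 and 11352 ± 6671 at DAP20 (SD, n = 2). With library totals in place of TMM the value was -0.34, and the median of all genes moved from -0.03 to -0.42. Lus10003554 stood at 0.78 ± 0.72 (SE, FDR = 0.387) and was called higher without DAP20 replicate 2, at 1.49 (FDR = 0.0446). Lus10014740 stood at 0.50 ± 0.85 (SE, FDR = 0.643). Without DAP20 replicate 1 the values of these genes were -0.71, -0.76 and -0.42 in the same order, none of them called.

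The outer stages, DAP5 and DAP30, were compared in the same fit, and here calls went in both directions. The rule capped both stages below the mid libraries, so the test reuses values that chose the genes. The shares over all genes, which met no such cap, are therefore not a like background. Of the 8, 5 were higher at DAP30, 2 were lower and 1 was not called, against 31.3% of all genes tested called higher, 38.9% lower and 70.2% in either direction. With library totals 4 were higher and 2 lower, against 17.3% of all genes tested called higher, 55.4% lower and 72.6% in either direction, while the median log2 change over all genes moved from -0.24 to -1.11. The 5 higher genes were Lus10033893, Lus10022927, Lus10003554, Lus10023514 and Lus10014740. The lower genes were those that rose between DAP10 and DAP20, Lus10027978 and Lus10025053.

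Lus10003554 was higher at DAP30, at 186 ± 22.6 CPM against 1.04 ± 0.724 at DAP5 (SD, n = 2), by 8.35 ± 1.0 in log2 (SE; edgeR FDR = 0.000221). Lus10033893 was higher at DAP30, at 1238 ± 571 against 8.45 ± 10.5 CPM (SD, n = 2), by 8.10 ± 1.34 in log2 (SE; FDR = 0.0011). Lus10023514 had a log2 fold change of 6.45 ± 1.05 (SE, FDR = 0.00104) and Lus10022927 one of 5.31 ± 1.33 (SE, FDR = 0.00848). All 4 were called under every alternative that kept both libraries of each stage. In each, both DAP30 libraries were above both DAP5 libraries, a separation whose share over all genes was not counted. The size of the change depended on the scaling and on single libraries. With library totals the log2 fold changes of Lus10003554, Lus10033893, Lus10023514 and Lus10022927 were 7.47, 7.19, 5.55 and 4.41. Without DAP5 replicate 1 the log2 fold changes of Lus10033893, Lus10023514 and Lus10022927 were 7.20, 5.55 and 4.36. Without DAP5 replicate 2 they were 11.03, 9.35 and 9.09, and that of Lus10003554 was 9.27. Without DAP30 replicate 2 that of Lus10033893 was 7.46.

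Lus10014740 was higher at DAP30, at 15.4 ± 0.237 against 3.25 ± 3.89 CPM (SD, n = 2), by 3.09 ± 0.95 in log2 under TMM (SE; edgeR FDR = 0.0205). With library totals this gene had a log2 change of 2.24. It was not called with library totals (FDR = 0.0566) or without DAP30 replicate 1 (0.0602) or replicate 2 (0.065), and its log2 change became 5.80 on leaving out DAP5 replicate 1 and 2.19 on leaving out replicate 2. Over the alternatives its FDR ran from 0.00119 to 0.065. Lus10028822, at 14.4 ± 15.4 and 27.2 ± 2.20 CPM (SD, n = 2), had a log2 fold change of 1.81 ± 0.81 (SE, FDR = 0.0799). It was called higher by limma-voom (FDR = 0.0387) and without DAP5 replicate 2, where the log2 fold change was 3.77 (FDR = 0.00365). The other 14 of the 16 settings did not call it. Its log2 fold change was 1.0 without DAP5 replicate 1 (FDR = 0.18) and 0.91 with library totals (FDR = 0.336).

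Lus10027978 stood at 20.6 ± 3.43 CPM at DAP5 (SD, n = 2) and had no count in the DAP30 libraries. On library totals it was thus at least 259-fold lower there, while the call rests on TMM (edgeR FDR = 1.09e-05). Under TMM scaling its DAP5 libraries stood at 13.1 and 15.8 CPM, and the bound is smaller on that scale. On library totals the bound was 114-fold without DAP30 replicate 1 and 145-fold without replicate 2, by construction, since the floor of 3 counts then rests on less depth. Lus10025053 was lower at DAP30, at 1.29 ± 0.822 against 5.58 ± 0.330 CPM (SD, n = 2), a log2 change of -1.27 ± 0.41 under TMM (SE; FDR = 0.0241). With library totals, on which CPM rests, the log2 change of this gene was -2.15. Over the alternatives its FDR ran from 0.00165 to 0.194. The call was lost with limma-voom (FDR = 0.0509), against a 2-fold change (0.194), with only DAP5 and DAP30 in the fit (0.0635), without DAP5 replicate 1 (0.0746) or without DAP30 replicate 1 (0.112). Its log2 change was -0.67 when DAP30 replicate 1 was left out and -2.16 when replicate 2 was.

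**Figure D3:**
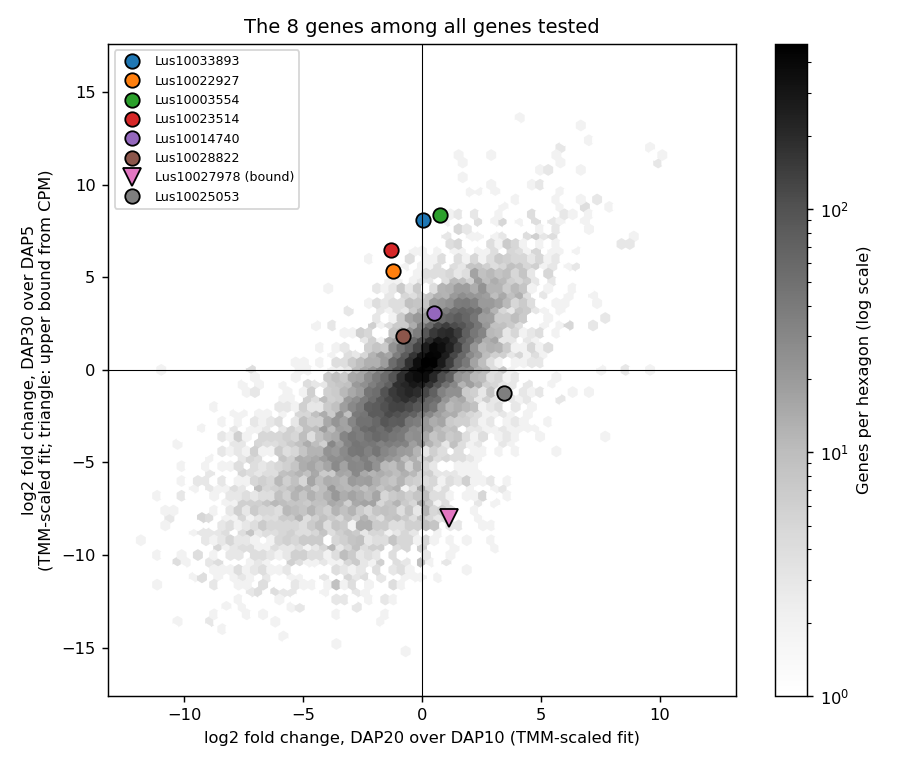
Fitted log2 fold change from DAP5 to DAP30 (vertical) against that from DAP10 to DAP20 (horizontal) for all 28749 genes tested, as hexagons shaded by the number of genes, with the 8 genes as coloured points. Of these, 6 lie above 0 on the vertical axis, from 1.81 to 8.35, while Lus10025053 lies at 3.45 and -1.27. Lus10027978 lies in the same quadrant, and its triangle marks the bound of 259-fold from CPM on library totals, not on TMM.

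The libraries of a stage differed unequally among the genes. At DAP5, 6 of the 8 genes differed by more than 2-fold between the libraries, on a scale of CPM plus 0.1, whereas 5.63% of the 24858 annotated IDs with a mean of 1 CPM or more at that stage did. Among the 13575 IDs in the genes' own range of DAP5 means, from 1.04 to 20.6 CPM, the share was 7.78%. Replicate 2 was 27.9 times replicate 1 for Lus10022927, which rested on 1080 and 37 counts, and 15 times for Lus10033893, on 439 and 28 counts. It was 14.9 times replicate 1 for Lus10023514, 7.14 times for Lus10028822 and 2.94 times for Lus10003554. Lus10014740 went the other way, with replicate 1 at 11.9 times replicate 2, on 159 and 14 counts. DAP5 replicate 2 was thus the higher library for most of these genes but not for all.

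At DAP20, 5 of the 8 genes differed by more than 2-fold, against 13% of 21701 annotated IDs and 15.8% of the 525 in the genes' own range of means, and in each of the 5 replicate 1 was the higher library. The ratio of replicate 1 to replicate 2 was 2.42 for Lus10033893, 2.74 for Lus10022927, 4.87 for Lus10003554, 2.83 for Lus10014740 and 2.94 for Lus10028822. It was 1.37 for Lus10023514. In Lus10027978 and Lus10025053, the genes that rose from DAP10 to DAP20, replicate 2 was the higher, at 1.28 and 1.33 times replicate 1. At DAP10 none of the 8 genes differed by more than 2-fold, against 2.56% of annotated IDs and 0.326% of the 6437 in the genes' own range. At DAP30 1 of the 7 genes with a count did, Lus10025053, against 3.59% of annotated IDs and 3.19% of the 18987 in that range. What sets the libraries of a stage apart was not tested.

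**Figure D4:**
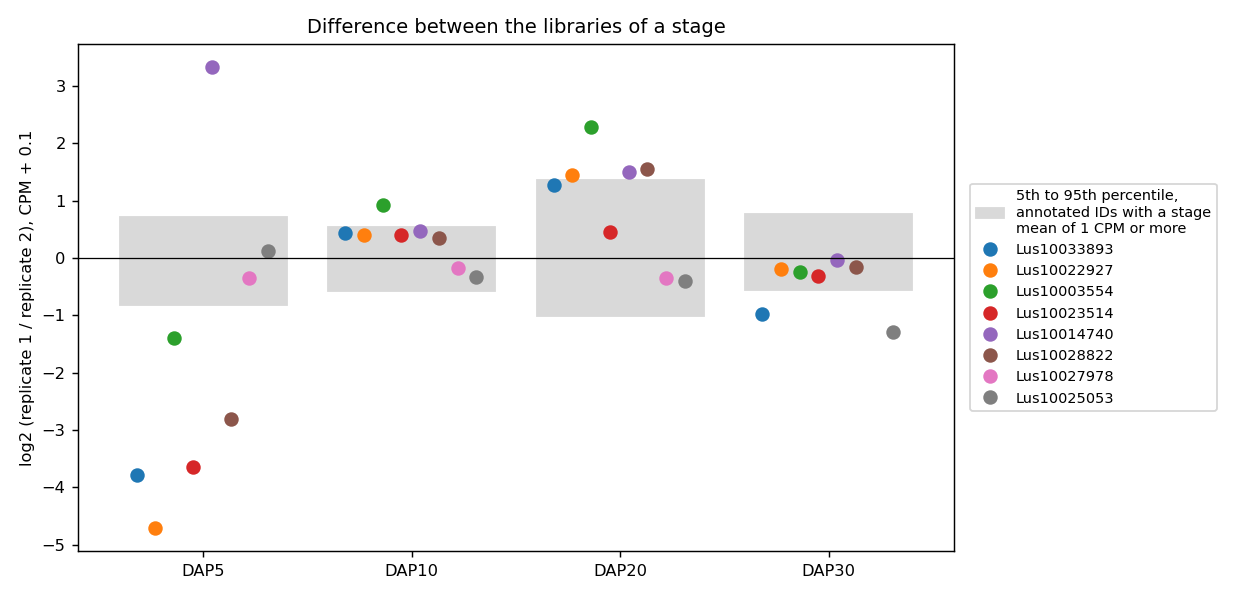
Log2 ratio of replicate 1 to replicate 2 for each gene at each stage, on CPM plus 0.1, with grey bands from the 5th to the 95th percentile of annotated IDs with a stage mean of 1 CPM or more. At DAP5 6 genes lie outside the band, 5 of them below it, and at DAP20 4 lie above it, while Lus10027978 and Lus10025053 lie within it at both stages. At DAP10 Lus10003554 lies above the band, at 0.93. At DAP30 Lus10033893 and Lus10025053 lie below it, at -0.98 and -1.29.

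DAP20 replicate 2 was the lowest mid library for the 6 genes with no called difference between DAP10 and DAP20, and DAP30 replicate 2 was the highest outer library for the same 6. For Lus10027978 and Lus10025053 the limiting libraries were DAP10 replicate 1 and a DAP5 library. Without DAP20 replicate 2 in the rule, 25 IDs passed in place of 8. With any other single library left out, 9 to 11 passed. Leaving out a library can only relax the rule, so the 8 genes stay in by construction.

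The rule was also applied to the 4 libraries of one replicate number, with the other 4 as libraries that it had not used. On replicate 1 it took 40 IDs and on replicate 2 it took 19. The 8 genes are among both by construction, since all 8 libraries chose them. With them included, 14 of the 40 and 11 of the 19 met the 4-fold limit in the unused libraries. The 8 genes are left out of what follows. This leaves only IDs that failed the full rule, so low counts there are partly set in advance. Of the other 32 IDs taken on replicate 1, 6 had a lowest mid library at least 4 times the highest outer library in replicate 2, and 21 had a ratio above 1, with a median ratio of 2.38. Of these 32, 26 had DAP20 replicate 2 as the lower of the unused mid libraries. Of the other 11 IDs taken on replicate 2, 3 met the 4-fold limit in replicate 1 and 7 had a ratio above 1, with a median of 1.85. These counts describe the rule and were not tested.

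Few of all expressed genes came near the fold limit, but the 8 had close neighbours outside it. Of the 5576 IDs with 20 CPM or more in all mid libraries, 179 had every mid library at or above every outer library, 31 did so by 2-fold, 14 by 3-fold and 8 by 4-fold. Just inside the fold limit, Lus10033893 had a ratio of 4.04 and Lus10022927 one of 4.37. Just outside it, Lus10023513 had a ratio of 3.99992, with 4027 and 4100 CPM by DAP10, 6679 and 5548 by DAP20 and 992 and 1007 by DAP30. Its libraries were closer to each other than those of any of the 4 abundant genes at DAP20. Lus10021180, at 3.95, had 10951 and 8081 CPM at DAP10 but 2257 and 699 at DAP20. At the level limit Lus10025053 was just inside, with a lowest mid library of 26.5 CPM, and Lus10019808 just outside, at 18.0 CPM with no count at DAP30. Abundant genes thus lie close outside the limit, and Lus10033893 itself fell outside when the rule was applied to TMM-scaled CPM, with a ratio of 3.71.

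With the same limits, a peak spanning DAP10 and DAP20 was met by fewer IDs than any single stage or either other pair of adjacent stages. For DAP5 with DAP10 the limits were met by 805 IDs and for DAP20 with DAP30 by 279. For DAP5 alone they were met by 359 IDs, for DAP10 alone by 101, for DAP20 alone by 60 and for DAP30 alone by 37. For triples of stages the number ran from 0 to 95. DAP5 with DAP30, the reverse of the pattern of the 8 genes, was met by 1 ID, and neither of the remaining pairs of stages by any. These counts rest on library totals and were chosen after the data were examined, and the count of 8 depended on DAP20 replicate 2, as given above.

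**Figure D5:**
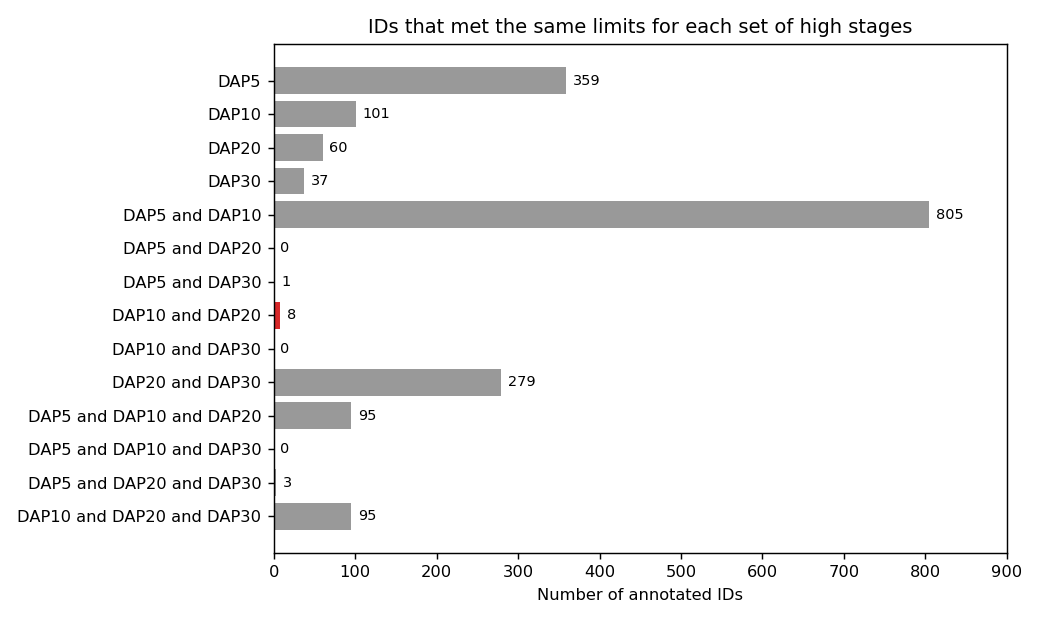
Number of annotated IDs that met the same limits (20 CPM in every high library, and the lowest of these at least 4 times every other library) for each single stage, pair and triple of stages. The 8 genes high at DAP10 and DAP20, in red, compare with 805 for DAP5 and DAP10 and 279 for DAP20 and DAP30.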

How the data were processed

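Per the file headers, the authors deposited raw counts of reads for each gene in each library, beside the length of the gene. Per the labels' protocols, TRIzol was used for RNA and an NEBNext Ultra kit for the libraries. The sources used here name no aligner, counting tool or genome build, and do not say whether strand was used. There were 40518 rows, 38306 with annotated IDs and 2212 models added by the authors. The rule for the 8 genes leaves out the added models and 2 annotated IDs.

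CPM was computed on column totals. Tests used edgeR 4.0.16 in R 4.3.3, with limma 3.58.1 and DESeq2 1.42.0 as alternatives. Genes were filtered by filterByExpr (minimum count 10, minimum total 15), scaled by TMM, and fitted by quasi-likelihood with stage as the only term over all 8 libraries. Adjusted p-values (FDR) are Benjamini-Hochberg values over all 28749 genes tested. A standard error is the size of the log2 change over the root of its F value. On counts simulated from these data, with 50 genes changed at each fold size, the test for DAP20 against DAP10, over 27931 genes, found 22% at 2-fold and 98% at 4-fold. That for DAP30 against DAP5, over 27902 genes, found 26% and 94%. The simulated spread was set by the level of a gene alone, without the gene's own scatter. These shares therefore do not carry over to the genes not called between DAP10 and DAP20, whose SEs ran from 0.72 to 1.12. Where a stage had no count, the fold uses a floor of 3 counts summed over its libraries.

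The members and tests were chosen with earlier results of these data known. The rule for named genes took the genes with the largest called changes, the most abundant ones and those next to a limit. Since only 8 genes were chosen, all of them are named.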

Additional observations from a re-analysis of the deposited data

How the results depend on the processing

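The number of genes taken by the rule, 8 as reported, was 31 with a 2-fold limit, 14 with a 3-fold limit (added after the data were examined), 1 with an 8-fold limit, 40 on replicate 1 alone and 19 on replicate 2 alone. With each library left out of the rule in turn it ran from 9 to 25. It was 11 on TMM-scaled CPM, of which 7 were among the 8, 11 at 10 CPM, 7 at 50 CPM, and 8 with added models allowed or with no limit of 200. The calls between DAP10 and DAP20 numbered 2, but 1 where the change had to exceed 2-fold, a stricter test by construction. The other alternatives gave 2 or 3 calls there and 5 to 8 between DAP5 and DAP30, where 7 were reported. The log2 fold change of Lus10033893 from DAP10 to DAP20, 0.05 and not called, was -0.34 with library totals, -0.069 by limma-voom and -2.33e-05 by DESeq2. With 1 library left out it ran from -0.71 to 0.53, with -0.17 without DAP10 replicate 2. That of Lus10003554 ran from -0.76 to 1.49 and that of Lus10014740 from -0.42 to 1.05. The cause was not tested. In these fits the lone library of a stage is assumed to vary as the other stages do. The median length of the 8 genes was 0.628 times that of annotated IDs passing the filter, 0.792 times that of all annotated IDs and 0.501 times that of IDs with 20 CPM in the mid libraries (a set added later). The labels number replicates alike at every stage without saying that equal numbers belong together, and the correlation of replicate differences between stages ran from -0.03 to 0.15. With the replicate block there were 2 calls between DAP10 and DAP20 and 7 between DAP5 and DAP30, at a median log2 fold change of 0.21 and 4.54.

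Depth limits the low levels most: 3 counts equal 0.108 to 0.232 CPM per library, and at DAP5 some of the genes rested on 13 to 43 counts.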
